A study of Homo sapiens with 18 samples.

Results

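The zinc finger genes described here are the protein-coding genes named ZNF followed by a number that lie on an autosome other than chromosome 19, the chromosome known for its dense clusters of this family. They were chosen by symbol and chromosome alone, and 251 of 19970 protein-coding genes of chromosomes 1 to 22 and X matched, beside 83 ZNF genes on the short arm of chromosome 19 and 163 on its long arm. Chromosome 7 held 35 of them and chromosome 16 held 30, and chromosomes 1, 3, 8 and 10 held 20, 19, 18 and 16. Chromatin immunoprecipitation and sequencing (ChIP-seq) had been done in U937, an established human myeloid leukaemia cell line, for the histone marks H3K9me3 and H3K27me3. For each mark there were 2 libraries from cells with a control guide RNA (sgControl), 2 from cells without SUV39H1 (SKO) and 2 from cells without SUV39H1 and SUV39H2 (DKO). The protein SETDB1 had been profiled in 2 libraries of wild-type U937 cells, which carry no guide. SUV39H1 and SUV39H2 are closely related enzymes that trimethylate lysine 9 of histone H3, and the comparisons ask which genes leave or enter domains of either mark without them. The labels do not say if each knockout is 1 clone or a pool of cells. They also do not say that the 2 libraries of a genotype came from separate cultures, so what separates them may be technical.

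C2H2 zinc finger proteins bind DNA through arrays of fingers, and many of them carry a KRAB domain, which recruits the corepressor TRIM28. TRIM28 brings SETDB1, another H3K9 methyltransferase, which writes H3K9me3 at the sites that KRAB zinc finger proteins bind, many of them in transposable elements. The zinc finger genes are themselves known targets of this system, with H3K9me3 spread over the gene bodies of their clusters. H3K27me3 is written by a different enzyme complex, Polycomb repressive complex 2, and is typical of silent developmental genes. Which members encode a KRAB domain was not determined here.

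The authors had called domains of each mark in each library separately, on a grid of 800 bp. The H3K9me3 lists held 21314 to 26591 domains over 754 to 1044 Mb with 16.5 to 23.6 M reads, and the H3K27me3 lists held 9855 to 15967 domains over 1058 to 1225 Mb with 47.9 to 70.7 M reads. The sgControl H3K9me3 lists were the longest, at 1044 and 1013 Mb, against 754 and 756 Mb in SKO and 795 and 788 Mb in DKO. Each gene was given the percentage of its body inside domains in each library, and a change was called where both values of 1 genotype lay on the same side of both values of the other, with a gap of at least 25 percentage points between the closest libraries. With 2 libraries against 2, an exact permutation test cannot go below p = 0.333, so no p-value is given for these calls. Domain lists carry no spike-in factor, so they show where a mark lay and not its total amount. Both targeted genes, SUV39H1 and SUV39H2, were at 0% for both marks in all 6 libraries, so the lists do not check the knockouts. Of 12 genes of the myeloid lineage of U937, 11 were at 0% H3K9me3 in both sgControl libraries and all 12 were at 0% H3K27me3. Of 10 genes of other lineages 8 were at 0% for each mark, and of all genes 69.3% and 79.8%, so these lists do not tell the lineage.

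In sgControl cells, 118 of the 251 zinc finger genes (47.0%) had at least 50% of the body inside H3K9me3 domains in both libraries, beside 13.7% of all genes. The 3 other zinc finger groups stood on either side of this share. It was 88.0% (73 of 83) for ZNF genes of the short arm of chromosome 19, 86.5% (141 of 163) for those of the long arm, and 31.0% (22 of 71) for genes named ZSCAN, ZKSCAN, ZFP or ZBTB. The members fell mostly at the extremes, since 103 were at 0% in both sgControl libraries and 64 were at 100% in both. Mean coverage of the 251 genes was 47.3% and 47.4% in the sgControl libraries, 48.9% and 49.9% in SKO and 47.6% and 48.8% in DKO. Over all genes it was 17.0% and 16.2%, 16.0% and 16.1%, and 16.1% and 16.4%.

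A block of 71 members was inside H3K9me3 over at least 90% of the body in all 6 libraries. The longest of them was ZNF385B, 420 kb on chromosome 2, a relative of the p53-linked ZNF385A, which was covered over 98.9% and 100% in sgControl, 94.1% and 90.1% in SKO and 96.9% and 95.4% in DKO. The next in length, ZNF678, ZNF718, ZNF184, ZNF680 and ZNF273, ran from 116 to 59.7 kb and were at or above 93.8% in every library. At the other end, 79 members were at 0% in all 6 libraries. ZNF292, 110 kb on chromosome 6, led this group by length, followed by ZNF652, ZNF385C, ZNF143, ZNF341 and ZNF346. ZNF143 is a widely used activator that binds promoters.

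H3K27me3 was no more frequent over these genes than over others. It covered at least 50% of the body in both sgControl libraries in 36 of 251 members (14.3%), beside 14.5% of all genes, and 178 members were at 0% in all 6 libraries. Most members with H3K27me3 also carried H3K9me3, while most with H3K9me3 lacked H3K27me3. Both marks covered at least 50% of the body in 31 members, 87 carried H3K9me3 alone, 5 carried H3K27me3 alone and 128 carried neither. Over all genes 1444 (7.23%) carried both, 1294 carried H3K9me3 alone and 1443 carried H3K27me3 alone. The members at or above 90% H3K27me3 in all 6 libraries numbered 9, and the longest were ZNF385D, ZNF385B, ZNF423, ZNF521, ZNF462 and ZNF334. ZNF423 and ZNF521 are related cofactors with many fingers that act in neural and blood cell development.

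Some runs of neighbouring members were uniform and others were mixed. Runs of at least 4 members with gaps of at most 250 kb numbered 12 and held 77 of the 251 genes. At the end of the long arm of chromosome 12, between 132918306 and 133214832 (GRCh38), the 7 genes ZNF605, ZNF26, ZNF84, ZNF140, ZNF891, ZNF10 and ZNF268 were at 100% H3K9me3 in all 6 libraries. On chromosome 16, between 30378312 and 30787205, the 9 genes from ZNF48 to ZNF629 were at 0% for both marks in every library and had no SETDB1 peak in both libraries. The 8 genes from ZNF786 to ZNF746 on chromosome 7 averaged 0.706% and 1.41% H3K9me3 in sgControl and no more than 8.79% in any knockout library. A mixed run lay at another place on chromosome 16, where ZNF205 and ZNF213 were at 0% H3K9me3 in both sgControl libraries and ZNF200, ZNF75A and ZNF597 were at 100%. Mean H3K9me3 in sgControl was 70.9% and 71.1% for members inside runs and 36.8% and 36.9% for the 174 outside them.

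**Figure D1:**
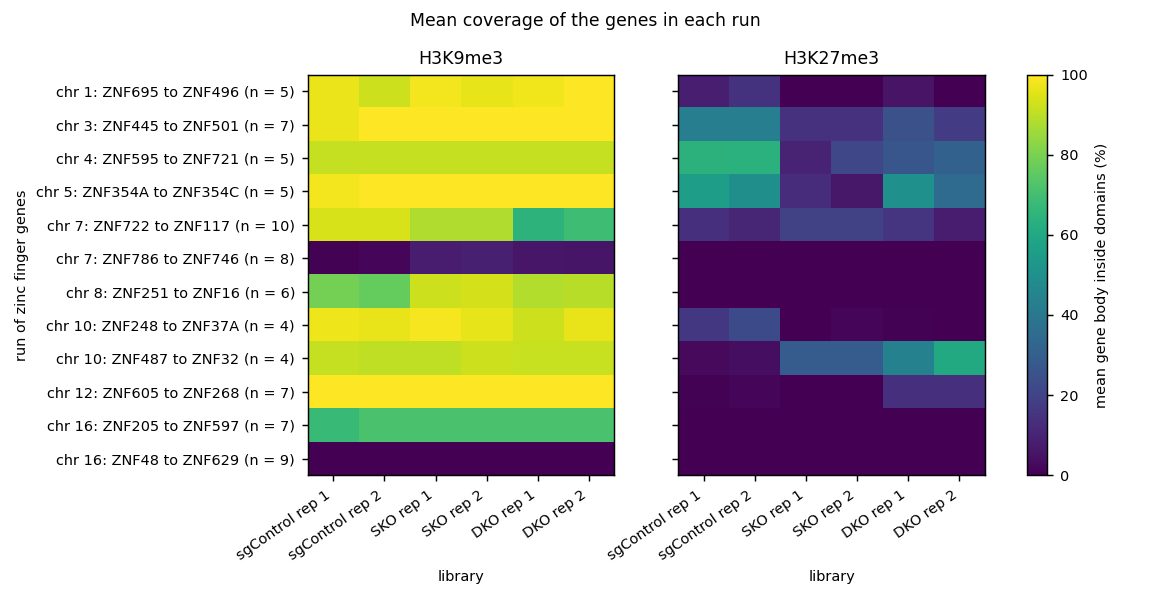
Mean percentage of the gene body inside H3K9me3 domains (left) and H3K27me3 domains (right) for the 12 runs of neighbouring zinc finger genes, with 1 column per library and the number of genes in each run in brackets. The run from ZNF605 to ZNF268 is at 100% H3K9me3 in all 6 libraries and the run from ZNF48 to ZNF629 is at 0% for both marks, while H3K27me3 over the run from ZNF595 to ZNF721 is 64.3% and 64.0% in sgControl and 10.1% and 21.3% in SKO.

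SETDB1 in wild-type cells followed H3K9me3. A peak inside the gene or within 2 kb of it was listed in both SETDB1 libraries for 143 of 251 members (57.0%), beside 20.6% of all genes. Among the 118 members with H3K9me3 over at least 50% of the body in both sgControl libraries, 103 (87.3%) had such peaks, against 40 of the other 133 (30.1%). The same shares over all genes were 40.7% and 17.4%. Of the 71 members covered in all 6 libraries 69 had SETDB1 in both libraries. The others were ZNF385B, which had no peak in either library, and ZNF239, with 1 peak and 0, which is named here after its values were seen. Of the 79 members without H3K9me3 in any library 9 had SETDB1 in both.

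The 6 members with most peaks were at or above 93.8% H3K9me3 in every library. ZNF721 on chromosome 4 had 27 and 24 peaks in the SETDB1 libraries, ZNF670 on chromosome 1 had 20 and 23, and ZNF680 on chromosome 7 had 18 and 17. ZNF26, ZNF37A and ZNF273 followed with 17 and 19, 16 and 20, and 15 and 20. Peaks were spread along the members: of the summits inside 196 members of at least 5 kb with a known strand, 49.5% and 51.5% lay past the middle of the gene. Over all 13483 such genes it was 44.8% and 45.1%. The last 10% of the gene, at its 3′ end, held 8.73% and 9.25% of the members' summits and 8.72% and 8.86% of those of all such genes, and the 10% at the 5′ end held 9.49% and 10.3% against 14.5% and 14.6%.

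**Figure D2:**
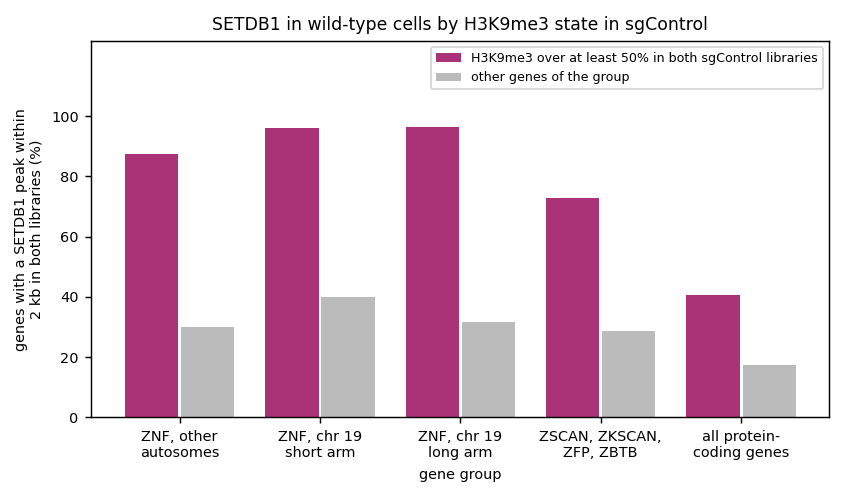
Percentage of genes with a SETDB1 peak in the gene or within 2 kb in both wild-type libraries (vertical axis), split by whether H3K9me3 covered at least 50% of the gene body in both sgControl libraries, for 4 groups of zinc finger genes and all protein-coding genes (horizontal axis). The bar for covered members is at 87.3% and that for the other members at 30.1%, against 40.7% and 17.4% over all genes.

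Promoters of 205 members were matched by symbol to a RefSeq table (GRCh38.p14) that gives 250 bases before and 50 after the annotated start. At least 50% of this window lay inside H3K9me3 domains for 82 and 85 of them in sgControl (40% and 41.5%), 93 and 90 in SKO and 81 and 91 in DKO, beside 13.2% to 14.4% of 15811 promoters of all genes. For H3K27me3 the counts were 29 and 30 in sgControl (14.1% and 14.6%), 20 and 21 in SKO (9.76% and 10.2%) and 28 and 24 in DKO (13.7% and 11.7%), beside 13.9% to 14.98% of all promoters. The CG dinucleotide, the site of DNA methylation, was present at least once in 99.0% of the members' windows and 98.1% of all windows. At least 10 were found in 89.3% of members and 73.0% of all genes, and the medians were 24 and 22.

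The 5 promoters that follow were chosen after their values were seen, since each belongs to a gene whose state turned over in a different way. They are written 5′ to 3′ on the gene's own strand, with each CG in capitals. The ZNF22 window (chr10:45000673-45000972, plus strand) holds 25 CG, lay outside H3K9me3 in both sgControl libraries and lay inside it in all 4 knockout libraries. The ZNF311 window (chr6:29005563-29005862, minus strand) holds 11, and left both marks in SKO. Those of ZNF300 (chr5:150904931-150905230, minus strand, 15 CG) and ZNF501 (chr3:44729385-44729684, plus strand, 27 CG) stayed inside H3K9me3 in every library, left H3K27me3 in both SKO libraries and lay inside it in both DKO libraries. The ZNF660 window (chr3:44584714-44585013, plus strand, 17 CG) left H3K27me3 in DKO alone.
ZNF22: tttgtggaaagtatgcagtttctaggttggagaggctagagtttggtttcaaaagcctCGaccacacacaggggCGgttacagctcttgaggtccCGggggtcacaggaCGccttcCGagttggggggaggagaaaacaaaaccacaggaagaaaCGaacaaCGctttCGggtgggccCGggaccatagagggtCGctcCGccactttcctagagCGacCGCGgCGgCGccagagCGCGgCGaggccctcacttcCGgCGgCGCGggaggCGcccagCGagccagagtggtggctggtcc
ZNF311: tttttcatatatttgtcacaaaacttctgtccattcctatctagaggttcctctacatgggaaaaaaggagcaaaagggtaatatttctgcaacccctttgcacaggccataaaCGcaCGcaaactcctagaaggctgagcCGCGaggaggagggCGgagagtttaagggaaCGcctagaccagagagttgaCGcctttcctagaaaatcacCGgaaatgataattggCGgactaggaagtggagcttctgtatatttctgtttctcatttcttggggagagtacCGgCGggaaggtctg
ZNF300: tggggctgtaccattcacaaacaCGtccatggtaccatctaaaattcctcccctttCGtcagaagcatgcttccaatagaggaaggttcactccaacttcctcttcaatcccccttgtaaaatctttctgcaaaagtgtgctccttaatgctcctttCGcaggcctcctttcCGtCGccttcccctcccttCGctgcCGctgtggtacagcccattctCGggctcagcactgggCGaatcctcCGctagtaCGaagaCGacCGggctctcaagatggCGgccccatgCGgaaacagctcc
ZNF501: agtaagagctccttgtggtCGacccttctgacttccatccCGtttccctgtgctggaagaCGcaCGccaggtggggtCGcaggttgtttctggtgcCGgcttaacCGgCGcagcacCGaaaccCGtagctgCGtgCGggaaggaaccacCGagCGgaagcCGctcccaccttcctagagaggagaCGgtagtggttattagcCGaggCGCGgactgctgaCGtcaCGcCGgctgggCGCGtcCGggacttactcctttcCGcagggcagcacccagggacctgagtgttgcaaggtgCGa
ZNF660: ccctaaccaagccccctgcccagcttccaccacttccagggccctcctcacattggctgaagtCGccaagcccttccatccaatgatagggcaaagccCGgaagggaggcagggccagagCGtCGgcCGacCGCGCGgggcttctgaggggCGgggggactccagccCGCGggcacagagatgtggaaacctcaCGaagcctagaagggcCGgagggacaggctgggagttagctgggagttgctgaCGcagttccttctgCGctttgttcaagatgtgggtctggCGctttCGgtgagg
These 5 windows ran from 11 to 27 CG, and the genes' values over the whole body are given with the comparisons.

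Without SUV39H1, 11 members were called lost from H3K9me3 domains and 17 were called gained. Over all genes 4.5% were called lost and 4.11% gained. Of the 129 members that could be called lost, with at least 25% coverage in both sgControl libraries, 8.53% were, against 24.6% of all such genes. Of the 135 that could be called gained, 12.6% were, against 4.77%. The members thus lay below the background for losses and above it for gains, which no test compared. Leaving out any 1 library moved these counts to between 11 and 14 lost and between 18 and 20 gained. The settings tried were gaps of 10 and 50 percentage points, lists cut to equal covered length or to the higher-scoring domains, 5 kb added on either side, limma with and without a replicate block, and leaving out each library. The gap of 10 points and leaving out a library can only keep a call made by the main rule, so the other settings are the ones that could end it. Of the 28 calls 14 held in every setting: ZNF138, ZNF311, ZNF385D, ZNF396, ZNF521, ZNF532 and ZNF804B among the losses, and ZNF22, ZNF76, ZNF326, ZNF438, ZNF479, ZNF512B and ZNF516 among the gains.

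The members lost in SKO were long, with a median body of 153 kb, against 23659 bp for all members and 24190 bp for all genes. Of these 11 genes 4 lay on chromosome 18, which held 9 members. Whether all genes called lost were long, or frequent on chromosome 18, was not tested. ZNF521, 290 kb on chromosome 18, fell from 96.9% and 89.7% in sgControl to 0% and 0% in SKO and stood at 10.5% and 0% in DKO. ZNF396, a small gene of 10.6 kb on the same chromosome, went from 100% and 100% to 0% and 0%, with 0% and 12.6% in DKO. ZNF804B, 579 kb on chromosome 7, went from 91.3% and 88.1% to 0% and 3.87% in SKO and 0% and 0% in DKO. In each of these the 4 knockout libraries lay far below both controls. ZNF532, ZNF385D, ZNF138, ZNF462, ZNF608, ZNF804A and ZNF407 were the others besides ZNF311, and their SKO libraries lay 30.4 to 72.2 percentage points below the nearest control library. ZNF804A, whose locus has been linked to psychiatric disease, went from 98.8% in both controls to 65.2% and 54.6% in SKO. The calls for ZNF407 and ZNF608 ended at equal covered length, and also when domains of the lower 50% of scores were left out. SETDB1 peaks were listed in both libraries for 4 of these 11 genes.

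The long members that were called lost from H3K9me3 and carried H3K27me3 were not called lost from H3K27me3 in SKO. ZNF521 was inside H3K27me3 over 98.3% to 100% of its body in all 6 libraries. Coverage does not show how dense the reads are. Its H3K27me3 read density relative to genes outside the ZNF family, a measure described below, was 1.44 and 1.42 in sgControl. In SKO this density was 0.864 and 0.904, and in DKO 0.916 and 0.933. Of the 9 members at or above 90% H3K27me3 in all 6 libraries, both SKO libraries lay below both controls for 5 and above for 3. ZNF385D, 961 kb on chromosome 3, had 90.01% and 90.4% H3K27me3 in sgControl and 92.0% and 92.1% in SKO, while its H3K9me3 went from 81.7% and 86.5% to 21.0% and 26.7%. ZNF462, a gene of neural development, likewise had 100% H3K27me3 in both controls and 95.3% and 100% in SKO, with H3K9me3 falling from 90.1% and 78.7% to 36.5% and 29.2%. ZNF311 was the only member called lost for both marks in SKO. Its H3K9me3 was 100% and 100% in sgControl, 0% and 0% in SKO and 55.5% and 100% in DKO, and its H3K27me3 was 100% and 100%, then 0% in the 4 knockout libraries.

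The gains in SKO fell on shorter genes than the losses, with a median of 36.5 kb, which is above the 23659 bp of all members. Of these 17 genes 13 had SETDB1 in both wild-type libraries, beside 57.0% of members and 20.6% of all genes. ZNF22 on chromosome 10 and ZNF76 on chromosome 6, a relative of ZNF143, were at 0% in both sgControl libraries and at 100% in all 4 knockout libraries. ZNF22 is 4.40 kb long, so its value rests on few steps of the domain grid, while ZNF76 spans 36.5 kb. ZNF438, 188 kb on chromosome 10, rose from 0% and 0% to 83.9% and 77.5% in SKO and 65.6% and 66.5% in DKO. ZNF516, 139 kb on chromosome 18, rose from 0% and 0% to 54.5% and 59.1%, with 63.2% and 63.7% in DKO. Its control and knockout libraries were thus well apart on the chromosome that held 4 of the losses. ZNF326, which encodes a subunit of a complex linking messenger RNA packaging to transcript elongation, went from 27.7% and 37.6% to 95.8% and 95.8%. ZNF148, ZNF786, ZNF512, ZNF644, ZNF517, ZNF343, ZNF479, ZNF512B and ZNF778 were also called gained. ZNF644 encodes a partner of the H3K9 methyltransferases EHMT1 and EHMT2. The calls for ZNF343 and ZNF517 ended when only the upper 50% of domains by score were used.

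**Figure D3:**
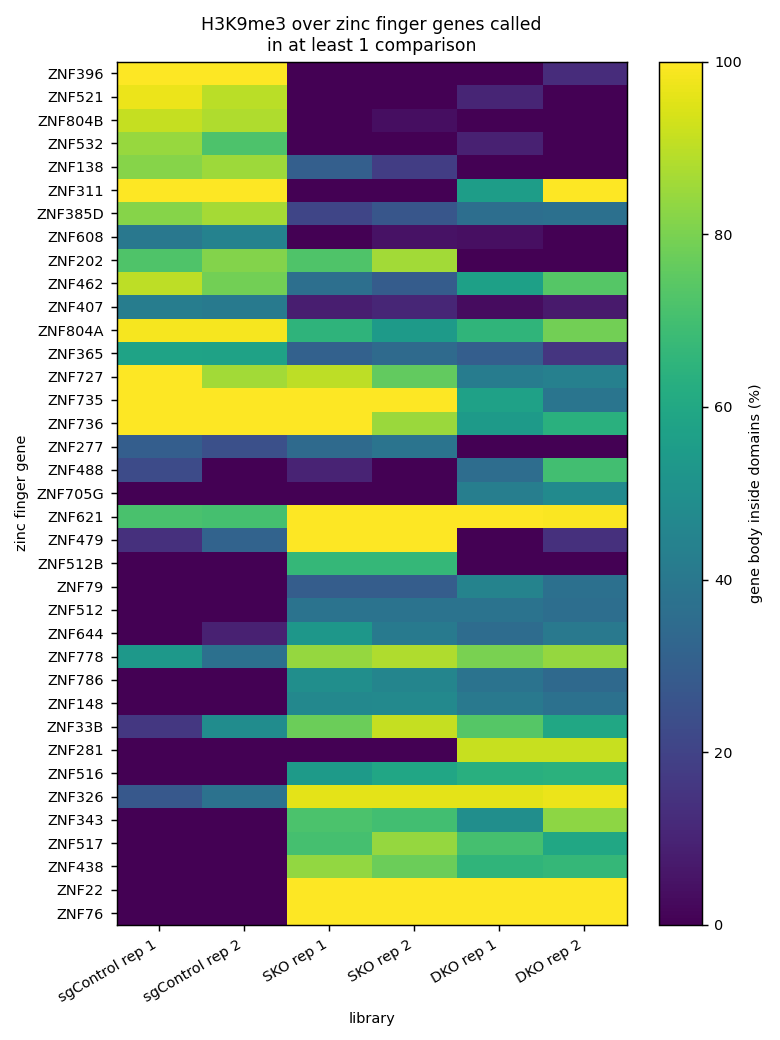
Percentage of the gene body inside H3K9me3 domains in each library (columns) for the 37 members called in at least 1 of the 3 comparisons between genotypes (rows). ZNF521 is at 96.9% and 89.7% in sgControl and 0% and 0% in SKO, and ZNF76 is at 0% and 0% in sgControl and 100% in all 4 knockout libraries.

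In DKO against sgControl, 13 members were called lost and 16 gained, beside 4.23% and 3.84% of all genes. Of those that could be called, 10.1% were lost and 11.9% gained, against 23.1% and 4.46% of all such genes. The comparisons of SKO and DKO use the same 2 control libraries, so their lists are not independent: 8 genes were lost in both and 14 gained in both. Of the 29 calls in DKO 11 held in every setting, among them ZNF138, ZNF396, ZNF521, ZNF532 and ZNF804B for losses. Those lost in DKO and not in SKO were ZNF202, ZNF735, ZNF727, ZNF736 and ZNF365. ZNF202, a SCAN and KRAB domain repressor of lipid metabolism genes, was covered over 72.6% and 81.6% in sgControl, 72.6% and 86.1% in SKO and 0% and 0% in DKO. This call ended when each list was shortened to the same covered length. ZNF281, a gene of stem cell state, was at 0% in the sgControl and SKO libraries and at 91.4% in both DKO libraries, over a body of 5.09 kb. ZNF705G was at 0% in the same 4 libraries and at 42.6% and 47.9% in DKO, and belongs to a family of near-identical copies that read mapping may not tell apart.

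Chromosome 7 accounted for 5 of the 13 members lost in DKO. Its 10 genes from ZNF722 to ZNF117, between 63998849 and 64991036, averaged 94.0% and 94.0% in sgControl, 88.1% and 87.9% in SKO and 64.7% and 69.0% in DKO. Among them ZNF138 went from 82.0% and 85.5% to 30.1% and 18.1% in SKO and to 0% in both DKO libraries. ZNF735 was at 100% in the sgControl and SKO libraries and at 57.2% and 38.9% in DKO. The chromosome as a whole moved the same way: 17.0% of its 938 genes were called lost in DKO, against 7.89% in SKO. Without chromosome 7 the members lost in DKO numbered 8. Whether the copy number of chromosome 7 differed between these lines was not tested.

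Compared directly, DKO had 6 members below SKO and 4 above, beside 1.34% and 1.46% of all genes. Of those that could be called, 4.44% were below and 2.90% above, against 7.26% and 1.65% of all such genes. Those below were ZNF479, ZNF202, ZNF512B, ZNF735, ZNF277 and ZNF727, and 4 of the 6 lay on chromosome 7, where 14.0% of all genes were called. ZNF479 had 13.8% and 31.8% in sgControl, 100% and 100% in SKO and 0% and 13.8% in DKO. ZNF512B was at 66.5% in both SKO libraries and at 0% in the other 4. For these 2 genes only the SKO libraries stood apart. Those above were ZNF281, ZNF311, ZNF705G and ZNF488, none of which was called when only the upper 50% of domains by score were used. Leaving out chromosome 7 took the number below from 6 to 2.

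For the 71 members covered over at least 90% in all 6 libraries, coverage had no room to change, and the density of H3K9me3 reads was compared in its place. The domain lists give each domain's read count, which was spread evenly over the domain to give reads per kb of gene body. These values were divided by the median of 518 genes outside the ZNF family that, like the 71 members, were covered over at least 90% in all 6 libraries. The median relative density of the 71 members was 1.504 and 1.501 in sgControl, 2.57 and 2.60 in SKO and 2.38 and 2.44 in DKO. For 166 ZNF genes of chromosome 19 it was 1.61 and 1.56, 2.65 and 2.78, and 2.44 and 2.62. In reads per kb, the members' medians were 38.5 and 29.8 in sgControl, 67.8 and 65.5 in SKO and 64.1 and 53.1 in DKO, and those of the other genes stayed between 19.8 and 26.9.

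Both SKO libraries lay above both sgControl libraries for 69 of the 71 members, and both DKO libraries did for 65. Over all 756 genes covered in this way these shares were 60.7% and 61.8%. The members' median ratio to sgControl was 1.76 in SKO and 1.53 in DKO. With limma on log2 relative density over the 756 genes, 66 members rose and 1 fell in SKO, and 63 rose and 1 fell in DKO, at a Benjamini-Hochberg adjusted p under 0.05. The same test called 50.5% of all 756 genes higher and 15.9% lower in SKO, and 46.3% and 12.8% in DKO. Comparing DKO with SKO directly, 22 members were lower and 0 higher, beside 11.2% and 3.57% of the 756 genes. Several members share a domain, so the 71 genes stand for 42 to 45 domains in each library. The 71 were selected on the knockout libraries too, which leaves out members that fell below 90% there. Among the 82 members at or above 90% in both sgControl libraries, both SKO libraries lay above both controls for 76 and below for 4. For DKO it was 72 and 6. For 1213 genes outside the family selected likewise it was 39.0% and 42.1% in SKO, and 39.2% and 40.3% in DKO. The measure was chosen after seeing the data, so its adjusted p-values are descriptive.

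ZNF660 on chromosome 3 had relative densities of 1.82 and 1.74 in sgControl, 3.39 and 3.49 in SKO and 2.61 and 2.73 in DKO. ZNF197, ZNF35, ZNF501, ZNF502 and ZNF852 had the same values, since reads were spread evenly over each domain. These are thus values of a shared domain and not of ZNF660 alone. The log2 difference was 0.95 (SE 0.050, limma adjusted p = 4.00e-05) in SKO and 0.58 (SE 0.050, limma adjusted p = 0.000224) in DKO. ZNF680 on chromosome 7 had 1.31 and 1.07, 3.26 and 2.41, and 2.88 and 2.65, so its knockout libraries lay above its controls even where the surrounding run lost coverage. ZNF385B went the other way, with 1.14 and 1.13 in sgControl, 0.802 and 0.781 in SKO and 0.892 and 0.839 in DKO, a log2 difference of -0.52 (SE 0.048, limma adjusted p = 0.000259) in SKO. It was the longest of the 71, the one without a SETDB1 peak in either library, and one of those inside H3K27me3 over the whole body. ZNF267 gave the highest point, 6.06 in 1 DKO library against 2.44 in the other. It is named after its values were seen.

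The median width of the domains holding these members was 166 and 180 kb in sgControl, 199 and 226 kb in SKO and 196 and 188 kb in DKO. For the 518 genes outside the family it was 142 and 138 kb, 154 and 159 kb, and 168 and 188 kb. The total length of the lists was lower in both knockouts, and the relative scale does not show whether the members gained reads or the other genes lost them. Scaled to each library's total of reads in domains instead, the members' median ratio was 2.01 in SKO and 1.83 in DKO. That of the 518 genes outside the family was 1.16 and 1.24 on this scale, so these genes were higher too.

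**Figure D4:**
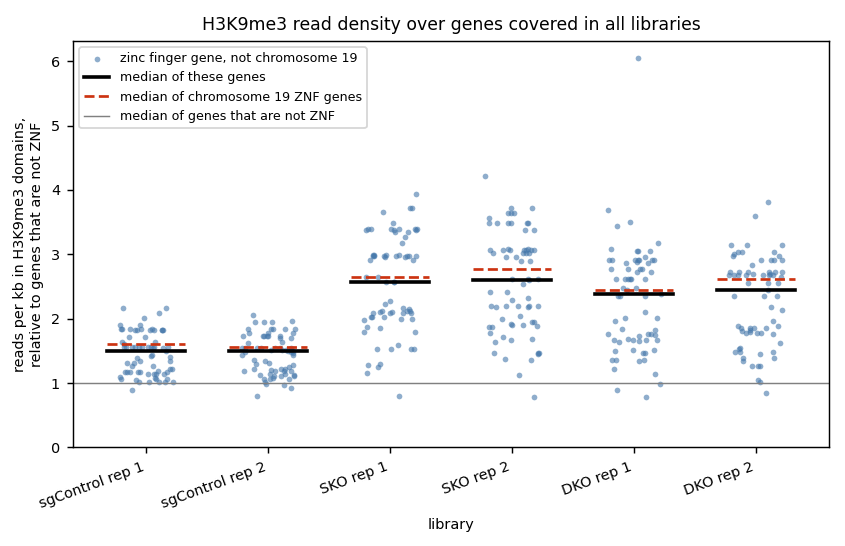
H3K9me3 reads per kb of gene body in domains, relative to the median of genes outside the ZNF family (vertical axis), in each library (horizontal axis) for the 71 members covered over at least 90% in all 6 libraries; each point is a gene, the black bar is the members' median and the dashed bar the median of chromosome 19 ZNF genes. The black bar is at 1.504 and 1.501 in sgControl, 2.57 and 2.60 in SKO and 2.38 and 2.44 in DKO.

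H3K27me3 covered less of these genes in SKO than in the other genotypes. Without SUV39H1, 20 members were called lost from H3K27me3 domains and 7 gained, beside 3.15% and 3.38% of all genes. Of the 45 members that could be called lost, 44.4% were, against 19.5% of all such genes, and of the 219 that could be called gained, 3.20% were, against 3.93%. The share lost on the long arm of chromosome 19 was 51.9% of 54 such ZNF genes, and on the short arm 40% of 10. Of 12 such genes named ZSCAN, ZKSCAN, ZFP or ZBTB, 50% were lost. The loss was thus not particular to the members. Mean H3K27me3 coverage of the 251 members was 15.4% and 16.3% in sgControl, 11.5% and 10.9% in SKO and 14.98% and 14.4% in DKO, and over all genes it stayed between 14.9% and 15.7%. The SKO libraries were thus the low ones for the members. The same held for ZNF genes of the long arm of chromosome 19. For those of the short arm the sgControl libraries were the low ones. Of the 27 calls 13 held in every setting, with ZNF141, ZNF287, ZNF300, ZNF311, ZNF501, ZNF502, ZNF514, ZNF595, ZNF624 and ZNF883 lost and ZNF474, ZNF704 and ZNF827 gained.

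All 20 members lost in SKO had H3K9me3 over at least 50% of the body in both sgControl libraries, and 19 of them had SETDB1 in both wild-type libraries. Of the 36 members with H3K27me3 in sgControl by that minimum, 31 had H3K9me3 as well. SETDB1 was listed for 87.3% of all members with H3K9me3, and neither count was tested against these shares. Over all genes 630 were called lost, of which 167 carried both marks in sgControl and 22 H3K9me3 without H3K27me3. In 18 of the 20 H3K9me3 still covered at least 90% of the body in both SKO libraries. The others were ZNF311, which left both marks, and ZNF595, at 55.6% throughout. Of the 31 members that carried both marks in sgControl, 17 (54.8%) lost H3K27me3 in SKO, against 11.6% of all 1444 such genes. None of the 5 members with H3K27me3 alone did, against 23.3% of all 1443 such genes. Within the 31, the 6 called lost from H3K9me3 and the 17 called lost from H3K27me3 had ZNF311 in common, which is 1 of 6 and 1 of 17. Over all 1444 such genes 66 were lost from both, 15.1% of 437 and 39.5% of 167, and the members were not tested against this.

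ZNF300 on chromosome 5 was at 100% H3K27me3 in both controls, at 0% in the SKO libraries and at 9.26% and 16.8% in DKO, with 100% H3K9me3 in all 6. ZNF502 on chromosome 3 had 100% and 100%, 0% and 0%, and 72.9% and 22.7%. Its neighbour ZNF501 had 100% and 100%, 0% and 0%, and 100% and 100%, and so differed from ZNF502 in DKO only. ZNF648 on chromosome 1 had 64.0% and 69.3% in sgControl and 0% in the 4 knockout libraries. ZNF883 on chromosome 9 had 83.4% and 100%, 0% and 0%, and 53.5% and 56.8%. ZNF287 and ZNF624, close neighbours on chromosome 17, had 100% in the controls and 27.01% and 0%, and 39.0% and 37.0%, in SKO. In all of these both SKO libraries lay well below the controls, while DKO ranged from no coverage to full coverage.

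The runs on chromosomes 3, 4 and 5 held several of these genes. The 5 genes from ZNF595 to ZNF721 at the end of the short arm of chromosome 4 averaged 64.3% and 64.0% H3K27me3 in sgControl, 10.1% and 21.3% in SKO and 26.7% and 30.9% in DKO, at 91.1% H3K9me3 in every library. The 5 genes from ZNF354A to ZNF354C on chromosome 5 averaged 55.7% and 49.8%, 12.5% and 6.46%, and 50.0% and 35.1%. On chromosome 10 the run from ZNF487 to ZNF32 went the other way, from 2.56% and 3.65% to 28.9% and 28.9% in SKO and 43.9% and 60.7% in DKO. Inside runs 10 of 77 members were called lost in SKO and outside runs 10 of 174, beside 3.15% of all genes.

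Members that gained H3K27me3 in SKO were ZNF474, ZNF827, ZNF860, ZNF485, ZNF704, ZNF23 and ZNF239, and all 7 were called in DKO as well. ZNF827, a gene of telomere chromatin, rose from 0% and 0% to 85.9% and 81.9% in SKO and 90.3% and 91.2% in DKO. ZNF704 on chromosome 8, 256 kb long, went from 40.005% and 45.2% to 100% in all 4 knockout libraries. ZNF485 rose from 0% and 0% to 69.4% and 69.4% and to 100% and 100%, with 100% H3K9me3 throughout. The SKO calls for ZNF239, ZNF485 and ZNF860 ended when each list was shortened to the same covered length, which leaves 4 gained, and so did the DKO calls for ZNF239 and ZNF860.

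**Figure D5:**
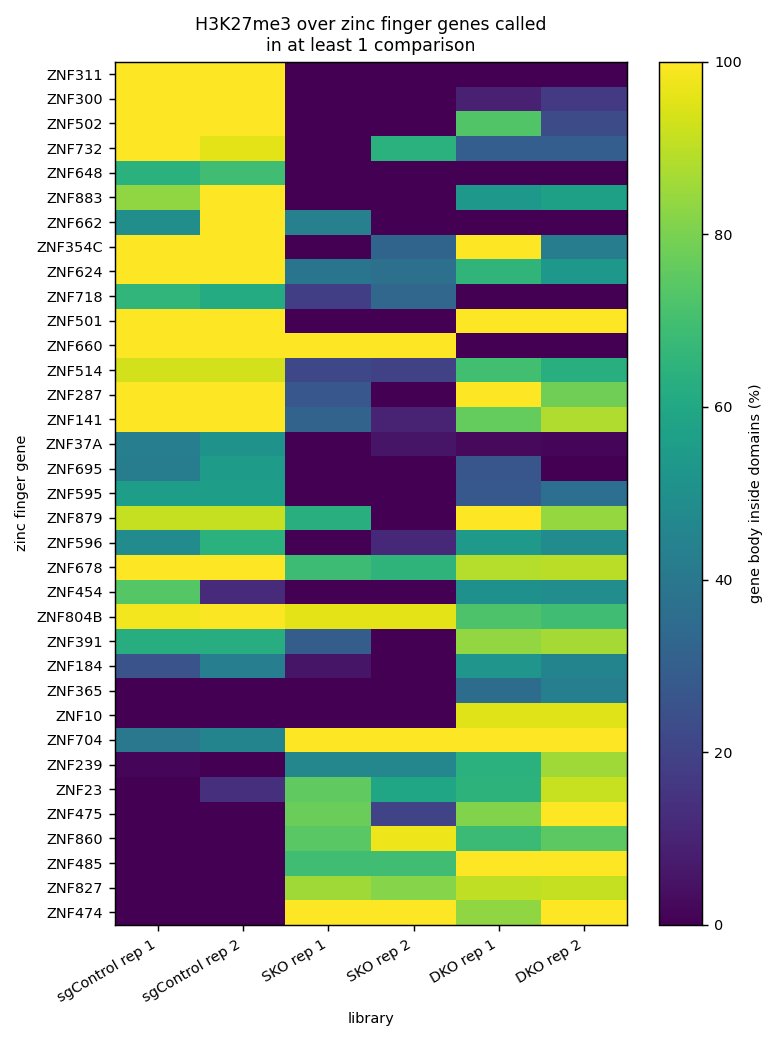
Percentage of the gene body inside H3K27me3 domains in each library (columns) for the 35 members called in at least 1 of the 3 comparisons between genotypes (rows). ZNF300 is at 100% in both controls and 0% in SKO, ZNF501 is at 0% in SKO alone, and ZNF10 is at 95.2% in DKO alone.

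In DKO against sgControl, 12 members were called lost and 10 gained from H3K27me3 domains, beside 3% and 3.82% of all genes. Of the 45 that could be called lost, 26.7% were, against 18.6% of all such genes, and 4.57% of 219 were gained, against 4.45%. Of these 22 calls 8 held in every setting, ZNF300, ZNF311, ZNF660, ZNF10, ZNF474, ZNF485, ZNF704 and ZNF827. Because SKO and DKO were set against the same controls, the 9 genes lost in both are given as a description: ZNF300, ZNF311, ZNF37A, ZNF502, ZNF624, ZNF648, ZNF718, ZNF732 and ZNF883. ZNF804B went from 98.3% and 99.3% in sgControl and 96.0% and 96.0% in SKO to 72.2% and 69.5% in DKO, and was the member lost from both marks in DKO. ZNF365, a gene with a role in DNA repair, lost H3K9me3, from 58.2% and 57.7% to 29.7% and 15.4%, and gained H3K27me3, from 0% and 0% to 35.5% and 43.1%, though neither call held at equal covered length. ZNF10, the source of the KRAB domain used in many synthetic repressors, had 0% in the sgControl and SKO libraries and 95.2% in both DKO libraries, with H3K9me3 at 100% in all 6.

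Against SKO, 13 members were higher for H3K27me3 in DKO and 1 was lower, beside 0.726% and 0.366% of all genes. Of those that could be called, 5.70% were higher and 3.45% lower, against 0.843% and 2.22% of all such genes. The 1 lower was ZNF660, at 100% in the sgControl and SKO libraries and 0% in both DKO libraries, where its H3K9me3 was 100%. Of the 20 members lost in SKO, 8 were above SKO in DKO: ZNF141, ZNF287, ZNF391, ZNF501, ZNF514, ZNF595, ZNF596 and ZNF883. None of these 8 calls held in every setting: those for ZNF501, ZNF514, ZNF595 and ZNF883 ended when each list was shortened to the same covered length. For ZNF141, ZNF287, ZNF391 and ZNF596 limma's adjusted p was 0.0556, 0.0708, 0.0589 and 0.0677. Of the 14 calls in DKO against SKO, those for ZNF10 and ZNF660 held in every setting. ZNF141 on chromosome 4 was at 100% in both controls, 31.9% and 9.75% in SKO and 76.2% and 88.1% in DKO. In it the DKO libraries lay between those of the other genotypes.

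Calls in the 2 marks were then set side by side. Of the 251, 69 had at least 1 call in the 6 comparisons, 37 for H3K9me3 and 35 for H3K27me3, and only ZNF311, ZNF365 and ZNF804B had both. That is 8.11% of the members called for H3K9me3 and 8.57% of those called for H3K27me3. Over all genes 361 had calls in both, 15.3% of 2364 and 23.02% of 1568, and the difference from the members was not tested. The remaining 182 members had none.

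A list of 28 genes of the H3K9 methylation and KRAB corepressor machinery was read in the same way. H3K9me3 covered at least 50% of the body in both sgControl libraries in 2 of them, beside 13.7% of all genes. At 0% in both were 23 for H3K9me3 and all 28 for H3K27me3, beside 69.3% and 79.8% of all genes. Those covered were ATF7IP, a partner of SETDB1, at 57.7% and 53.6%, and RESF1, at 57.0% and 72.1%. None was called for either mark in SKO. In DKO 2 were called gained for H3K9me3, beside 3.84% of all genes. SETDB2, a relative of SETDB1, went from 18.9% and 15.8% to 58.3% and 61.5%. The deacetylase gene HDAC2 went from 1.503% and 3.60% to 35.1% and 64.5%. None was called lost. SETDB1 peaks were listed in both libraries for 9 of the 28, beside 20.6% of all genes.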

How the data were processed

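ChIP-seq of H3K9me3 and H3K27me3 in 3 genotypes of U937 and of SETDB1 in wild-type cells gave 14 samples with a file. The 4 input samples were not analysed here. The authors' deposited domain lists (epic2, as the deposited files are named) give each domain's read count, a score and a p-value, and the deposited SETDB1 peak lists give a −log10 p and a summit for each peak. Trim Galore 0.6.10, FastQC 0.12.1 and deepTools 3.5.6 are named in the submitters' processing notes, with builds hg38 and dm6. Neither the aligner nor the settings of the callers are stated in the labels or headers. A Drosophila spike-in was added, per the labels' protocols, but the lists hold no factor from it.

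Gene bodies came from RefSeq (GRCh38.p14), 1 per symbol. For each library the percentage of each body inside domains was computed with Python 3.11.15, numpy 2.4.6 and pandas 2.3.3, and figures were drawn with matplotlib 3.10.9. A call needed libraries that did not overlap and a nearest difference of at least 25 percentage points. This rule was run on simulated gene-body percentages and not on simulated domain lists. Genes that could be called lost had at least 25% in both reference libraries, and those that could be called gained had at most 75%. limma 3.58.1 (R 4.3.3) on the percentages of genes that varied, 7903 for H3K9me3 and 3790 for H3K27me3, with Benjamini-Hochberg adjustment over all of them, was an alternative, and on log2 relative read density it was the test. Named genes were called members, at most 15 per direction in order of nearest difference, the 6 longest of each constant class, the 6 with most SETDB1 peaks, and members of runs. The members and lists were chosen with earlier results of these data known. The labels do not say whether libraries with the same replicate number were paired. For the difference of replicates 1 and 2 the correlation between genotypes was -0.0145 to 0.0331 for H3K9me3 and 0.0190 to 0.0503 for H3K27me3. A low correlation does not show that they were unpaired, so limma was also read with a replicate block. The labels give no batch. Alternatives were other differences, a score filter, equal covered length, 5 kb flanks, chromosome 7 left out and each library left out. Zinc finger genes can resemble each other closely, and how reads were placed among such copies affects the value of any 1 gene.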

Additional observations from a re-analysis of the deposited data

Results flagged for a closer look

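H3K27me3 over ZNF391 on chromosome 6 lay below both controls in SKO and above both in DKO, by at least 10 percentage points between the nearest libraries each time, the minimum set for such a pattern. Coverage was 62.5% and 62.5% in sgControl, 29.3% and 0% in SKO and 83.6% and 86.3% in DKO. The nearest libraries differed from sgControl by -33.2 percentage points in SKO and by 21.1 in DKO. Both differences use the same control libraries, and between DKO and SKO limma gave an adjusted p of 0.0589. ZNF184, also on chromosome 6, moved the same way with a nearest difference of 2.32 points in DKO, under that minimum, at 25.5% and 42.8%, 5.79% and 0%, and 52.1% and 45.1%. For ZNF391 H3K9me3 was 100% in all 6 libraries, with 1 and 4 SETDB1 peaks.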

How the results depend on the processing

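No call turned round in any setting, and 50 of the 130 calls of members held in every setting that tested the gene. With a difference of 50 points, members lost and gained for H3K9me3 numbered 7 and 9 in SKO, 6 and 7 in DKO, and 3 and 2 in DKO against SKO; for H3K27me3, 12 were lost in SKO, 6 lost in DKO and 5 gained in DKO against SKO. With 10 points, H3K9me3 gave 26 gained in DKO and 12 lost in DKO against SKO, and H3K27me3 gave 22 lost in DKO and 5 lost and 20 gained in DKO against SKO. Without chromosome 7, H3K9me3 was lost by 8 in DKO and by 2 in DKO against SKO. Using the upper 50% of domains by score, DKO against SKO had 0 gained for H3K9me3 (4 by the main rule, and limma on all domains gave 2) and 3 lost for H3K27me3. At equal covered length, H3K27me3 gave 4 gained in SKO and 2 lost in DKO against SKO. limma gave 2 gained for H3K9me3, and 3 lost and 8 gained for H3K27me3, in DKO against SKO. limma with the replicate block gave 2 for H3K9me3, and 2 lost and 6 gained for H3K27me3, and in the other comparisons the block kept each count within 1.5 times. Leaving out 1 library gave, for H3K9me3, 11 to 14 lost and 18 to 20 gained in SKO, 15 to 17 and 19 to 21 in DKO, and 7 to 9 and 5 to 8 in DKO against SKO. For H3K27me3 it gave 21 to 26 and 7 to 9, 13 to 17 and 10 to 11, and 1 to 4 and 15 to 18. The cause of these changes was not tested, except that fewer libraries or a smaller difference make the rule easier to meet. Members with H3K9me3 in sgControl numbered 122 to 123 with 1 library left out, those with H3K27me3 37 to 41 and those with SETDB1 156 to 157. SETDB1 was listed for 137 members in the gene body alone, 152 within 10 kb and 111 at a −log10 p of at least 10, beside 17.9%, 26.7% and 8.56% of all genes. For read density the block took the members lower in DKO than in SKO from 22 to 9, and limma's adjusted p for ZNF267 in DKO from 0.0650 to 0.0471. The read density measure and its alternatives were chosen after seeing the data. Its median ratio ran from 1.76 to 2.01 in SKO and from 1.51 to 1.83 in DKO. The depth of these lists limits how well the edge of a domain is placed, and short genes rest on few grid steps.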
